A study of Mus musculus with 2 samples.

Results

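Lag3, Havcr2, Cd160 and Cd244 encode 4 receptors found on exhausted T cells. They were taken by symbol from the 27998 genes counted in the immune cells of MC38 tumours, and all 4 had counts. The level of each gene, and its presence in the same cells as Pdcd1, was read in classes of cells gated on marker genes, in a control library and in a library from tumours injected with an antibody against PD-1.

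Exhaustion is the state of T cells that have met antigen for a long time in a tumour or a chronic infection, in which they carry several inhibitory receptors beside PD-1, the product of Pdcd1. Lag3 encodes LAG-3, a relative of CD4 that binds MHC class II. Havcr2 encodes TIM-3, a receptor for galectin-9 on T cells, dendritic cells and macrophages. Cd160 encodes a receptor for the herpesvirus entry mediator, the product of Tnfrsf14, on NK cells and cytotoxic T cells. Cd244 encodes 2B4, a receptor of the SLAM family that binds CD48 and can activate or inhibit NK cells and T cells depending on its adaptors.

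MC38 is a mouse colon carcinoma line. Its cells were injected intradermally at 4 sites in each C57BL/6J mouse and grew for 7 days. The tumours were then injected with control, which the labels do not describe further (the Control library), or with daily anti-PD-1 antibody, 200 µg to a mouse (the aPD1 library). Viable CD45+ cells were sorted on day 10 for 10x 3′ single-cell libraries. There was 1 library per group. How many mice gave each library, their age and any pooling are not stated in these sources, and the labels name no genetic change in either group.

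Barcodes with at least 1000 unique molecular identifiers (UMIs, each standing for 1 captured RNA molecule) and at most 10% mitochondrial UMIs were kept as cells, 1174 in Control and 3321 in aPD1, with medians of 3287 and 2763 UMIs. Levels are UMIs of a gene per 1000000 UMIs of the class (CPM). All intervals are 95% intervals for counting error only, and with 1 library per group nothing can be said of the spread between mice and no test between the groups was made. T cells had a Cd3 UMI, and were divided into CD8 cells with a Gzmk UMI (16 Control and 677 aPD1 cells), CD8 cells without one (56 and 376), CD4 cells without Foxp3 (43 and 104), Foxp3 T cells (78 and 163) and other T cells, which had no deciding UMI or a mixed set (172 and 454). NK cells numbered 280 and 406 and myeloid cells 402 and 708. A cell counted as without Gzmk may still express it below the depth of capture. The 2 libraries shared 4 cell barcodes, and no doublet caller was run. In the NK and myeloid gates no Cd3 UMI was present by construction, and the summed level of 5 NK genes (Ncr1, Klrb1c, Klra8, Klre1 and Eomes) was 2391 and 2757 CPM in NK cells, at most 162 CPM in CD8 cells with Gzmk, 248 and 168 CPM in CD8 cells without it, and 820 and 818 CPM in other T cells, so the last class holds NK-cell transcripts. Ncr1 and Klrb1c also define the NK gate, so the value in NK cells was in part set by the gate. Free RNA, read from barcodes with 10 to 50 UMIs, accounted for at most 4.62 CPM of any member in T and NK cells, the upper limit of its interval.

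In the GRCm38 build Lag3 lies at chr6:124904361-124911705 on the minus strand, Havcr2 at chr11:46454935-46481255 on the plus strand, Cd160 at chr3:96798763-96829351 on the minus strand and Cd244 at chr1:171559193-171609746 on the plus strand. All 4 are protein-coding genes. Cd160 overlaps Pdzk1 on the opposite strand by 68 bases, and Cd244 overlaps Ly9, another SLAM family gene, on the opposite strand by 18787 bases. Whether counting used strand is not stated in these sources. Ly9 was at 28.1 CPM in aPD1 CD4 cells and 61.3 CPM in aPD1 Foxp3 T cells, where Cd244 had 0 and 9.08 CPM, and at 21.5 CPM in aPD1 NK cells, where Cd244 had 166 CPM.

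The sequences upstream of Havcr2 and Cd244 are shown because these 2 members stood at 31.4 CPM or more in myeloid cells as well as in lymphoid classes, where Lag3 had at most 6.57 CPM and Cd160 at most 3 UMIs in myeloid cells. They come from RefSeq (GRCm38.p6), where 3 of the 4 members matched, Cd244 under the name Cd244a and Cd160 with 2 start sites. Lag3 was not matched. Each run holds the 250 bases before the start site, 5′ to 3′ on the gene's strand, with matches to 4 motifs in capitals. The AP-1 motif was TGANTCA and the RUNX motif TGTGGT. The PU.1-type ETS motif was GAGGAAGT. The TATA box was searched as TATAAA, and all 4 on both strands.
Havcr2, chr11:46454681-46454930: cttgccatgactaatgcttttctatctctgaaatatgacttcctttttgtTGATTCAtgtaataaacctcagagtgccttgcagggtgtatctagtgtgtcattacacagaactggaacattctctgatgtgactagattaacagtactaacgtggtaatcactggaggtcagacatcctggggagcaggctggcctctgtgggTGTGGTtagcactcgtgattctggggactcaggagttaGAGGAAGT
Cd244, chr1:171558943-171559192: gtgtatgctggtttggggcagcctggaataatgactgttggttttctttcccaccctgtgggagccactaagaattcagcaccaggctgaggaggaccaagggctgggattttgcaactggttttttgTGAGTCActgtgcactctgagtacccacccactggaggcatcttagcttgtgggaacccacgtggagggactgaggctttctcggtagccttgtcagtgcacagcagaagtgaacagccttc
The Havcr2 run held TGATTCA from 200 bases before the start site, TGTGGT from 46 bases and GAGGAAGT from 8 bases. The Cd244 run held TGAGTCA from 122 bases, and both Cd160 runs held a RUNX match, from 101 and 76 bases. No matches overlapped. Of 32851 RefSeq promoter windows of this length, 6.75% held the AP-1 motif, 14.0% the RUNX motif, 2.44% the PU.1-type motif and 12.4% the TATA box. These are matches of letters, not measured binding.

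Lag3 was a gene of T cells, highest in Foxp3 T cells in both libraries. It stood there at 486 CPM in Control (402 to 582, 117 UMIs in 78 cells) and at 372 CPM in aPD1 (318 to 434, 164 UMIs in 163 cells). In CD4 cells it was at 357 CPM (266 to 470) and 309 CPM (248 to 381), and these intervals overlapped those of Foxp3 T cells in the same library. In CD8 cells without Gzmk it was at 176 CPM in Control (125 to 240) and 281 CPM in aPD1 (251 to 313). The aPD1 value overlapped that of CD4 cells and lay above all classes ranked below it. Other T cells stood at 145 and 198 CPM, and CD8 cells with Gzmk at 185 CPM in Control (92.6 to 332, 11 UMIs) and 132 CPM in aPD1 (118 to 148, 314 UMIs). NK cells were lower, at 36.5 CPM (25.1 to 51.2) and 62.8 CPM (49.0 to 79.4), and myeloid cells lowest, at 6.57 and 5.62 CPM. Among myeloid gates only cDC2 cells had more than 5 Lag3 UMIs in either library, 6 in 32 Control cells and 10 in 22 aPD1 cells, and a single cell held 3 of the 6 and 5 of the 10.

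**Figure D1:**
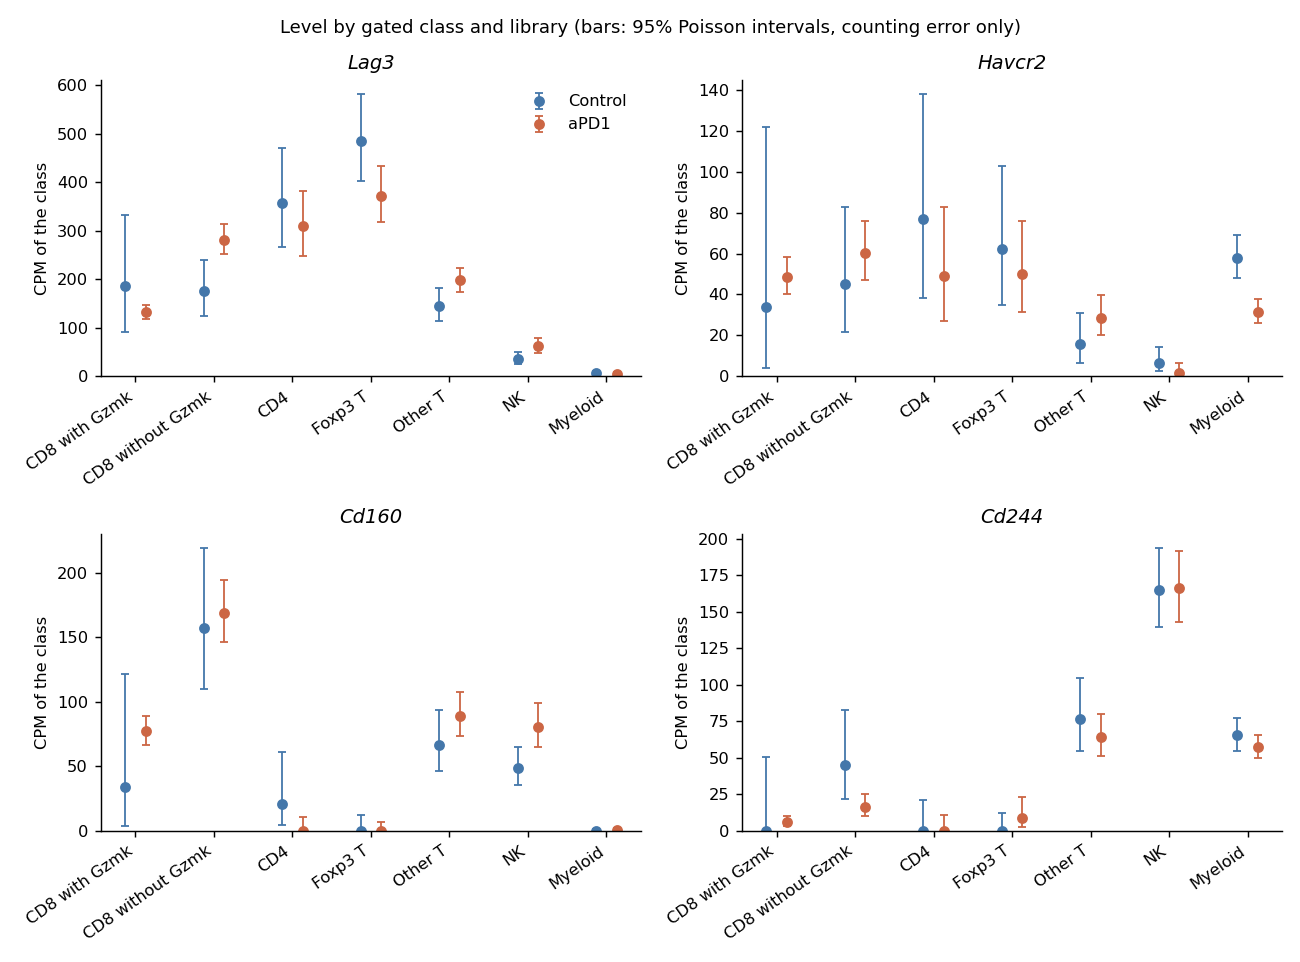
Level of each member in CPM (vertical axis) in 7 gated classes (horizontal axis) of the Control library (blue) and the aPD1 library (orange), with 95% Poisson bars for counting error. Lag3 is highest in Foxp3 T cells (486 and 372 CPM), Havcr2 is present in T and myeloid cells, Cd160 is highest in CD8 cells without Gzmk (158 and 169 CPM), and Cd244 is highest in NK cells (165 and 166 CPM).

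Between the libraries Lag3 differed in opposite directions in different classes. The ratio of aPD1 to Control on the log2 scale was 0.68 in CD8 cells without Gzmk (0.20 to 1.20), 0.78 in NK cells (0.17 to 1.43) and 0.44 in other T cells (0.06 to 0.84). In Foxp3 T cells it was -0.38 (-0.73 to -0.03). In CD4 cells (-0.21, -0.72 to 0.32) and myeloid cells (-0.23, -1.29 to 0.87) the interval held 0. Taken over all CD8 cells, with and without Gzmk, Lag3 was at 178 CPM in Control and 181 CPM in aPD1, a ratio of 0.03 (-0.39 to 0.48). The CD8 cells with Gzmk, where Lag3 was lower in aPD1 than in CD8 cells without it, made up 16 of 72 CD8 cells in Control and 677 of 1053 in aPD1. With each cell thinned to 1000 UMIs the ratio in other T cells was 0.03. 

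The share of cells with a Lag3 UMI, at 1000 UMIs per cell, was 35.9% of Control Foxp3 T cells (25.3% to 47.6%) and 31.3% of aPD1 ones (24.3% to 39.0%), with means of 28.9% and 30.4% over 20 draws, and 48.7% and 48.5% without thinning. These intervals overlapped, as did those of CD8 cells without Gzmk, at 10.7% (4.03% to 21.9%) and 15.2% (11.7% to 19.2%). In thinned myeloid cells, which should lack most of it, the share was 0.746% in Control and 0.424% in aPD1. Without thinning, at median depths of 4734 and 4143 UMIs, it was 2.24% and 1.55%. By source, the Lag3 UMIs of the Control library came from Foxp3 T cells (30.5%), CD4 cells (13.3%) and other T cells (19.3%), and CD8 cells with and without Gzmk gave 2.86% and 10.2%. In aPD1 these CD8 cells gave 23.5% and 24.5% and Foxp3 T cells 12.3%, of 1337 UMIs in all.

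Havcr2 was spread over T and myeloid cells. In Control it was at 77.1 CPM in CD4 cells (38.5 to 138, 11 UMIs), 62.3 CPM in Foxp3 T cells (34.9 to 103, 15 UMIs), 57.8 CPM in myeloid cells (48.0 to 68.9, 123 UMIs) and 45.0 CPM in CD8 cells without Gzmk (21.6 to 82.8, 10 UMIs). All neighbours in that order overlapped. In aPD1 it was at 60.1 CPM in CD8 cells without Gzmk (46.9 to 76.0, 70 UMIs), 50.0 CPM in Foxp3 T cells, 49.2 CPM in CD4 cells and 48.5 CPM in CD8 cells with Gzmk (40.1 to 58.2, 115 UMIs), which overlapped one another. Myeloid cells lay below CD8 cells with Gzmk, at 31.4 CPM (25.9 to 37.8, 112 UMIs), and NK cells had 6 UMIs in Control and 2 in aPD1. Havcr2 was therefore a myeloid transcript by source in Control, where 61.8% of its UMIs came from myeloid cells, 1.01% from CD8 cells with Gzmk and 5.03% from those without. In aPD1 these shares were 25.0%, 25.7% and 15.6%. CD8 cells were 6.13% of Control and 31.7% of aPD1 cells, and myeloid cells 34.2% and 21.3%.

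In myeloid cells Havcr2 was lower in aPD1, with a log2 ratio of -0.88 (-1.26 to -0.50). None of the 3 members with at least 20 UMIs there, Lag3, Havcr2 and Cd244, was past 2-fold, against 8.78% of all genes. With each cell thinned to 1000 UMIs the ratio was -0.20, from 17 and 26 UMIs. Macrophages with C1q transcripts had 58.0 CPM in Control (43.4 to 75.9) and 40.7 CPM in aPD1 (28.8 to 55.8), and monocytes 52.8 CPM (34.2 to 78.0) and 32.4 CPM (24.6 to 41.9). Neither interval of the ratio excluded 0, at -0.51 (-1.15 to 0.12) and -0.70 (-1.40 to 0.03). In myeloid cells of no narrower gate it was at 102 CPM in 53 Control cells (66.5 to 149, 26 UMIs) and 10.5 CPM in 59 aPD1 cells (2 UMIs), a ratio of -3.28 (-6.40 to -1.28). The C1q gate held 151 of 402 myeloid cells in Control and 154 of 708 in aPD1, and the summed level of 5 macrophage genes (C1qa, C1qb, C1qc, Apoe and Ms4a7) was 12574 and 4257 CPM in myeloid cells. The part of this in the Havcr2 difference was not tested. In the 4 T-cell classes with a Havcr2 ratio every interval held 0, from -0.65 in CD4 cells (-1.89 to 0.64) to 0.87 in other T cells (-0.26 to 2.18).

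**Figure D2:**
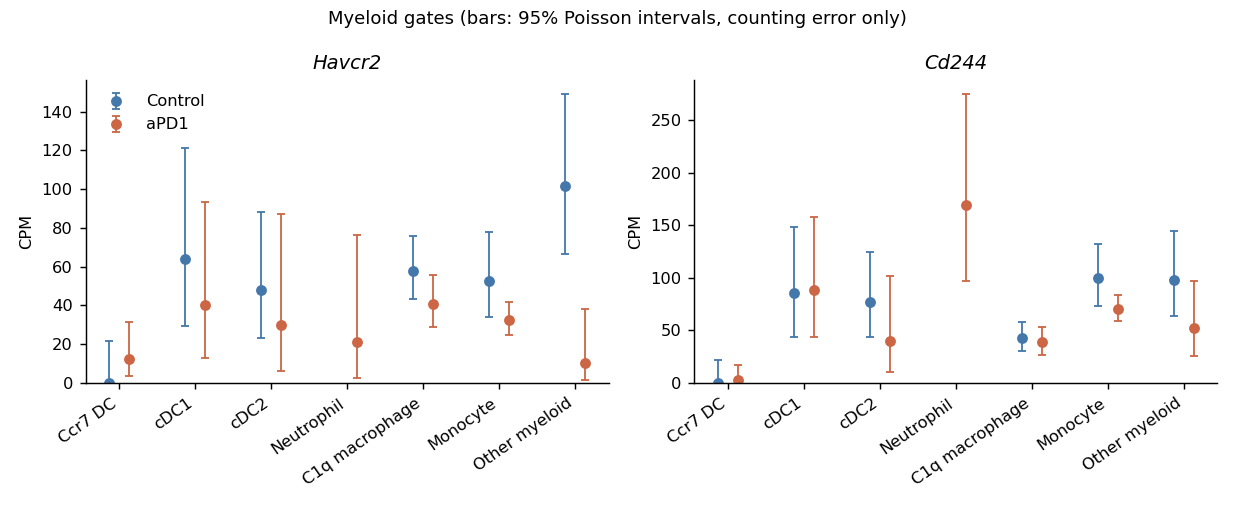
Havcr2 and Cd244 in CPM (vertical axis) in 7 myeloid gates (horizontal axis) of the Control (blue) and aPD1 (orange) libraries, with 95% Poisson bars. Ccr7 dendritic cells have no Havcr2 or Cd244 UMI in Control, the neutrophil gate held no Control cell, and the myeloid cells of no narrower gate show the widest gap in Havcr2 (102 and 10.5 CPM).

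Cd160 was a gene of CD8 and NK cells. It was highest in CD8 cells without Gzmk, at 158 CPM in Control (110 to 219, 35 UMIs) and 169 CPM in aPD1 (146 to 195, 197 UMIs), above every other class in both libraries by intervals that did not overlap, except that of Control CD8 cells with Gzmk (33.7 CPM, 4.08 to 122, 2 UMIs). A single cell held 11 of the 35 Control UMIs. Other T cells had 66.8 and 89.3 CPM, NK cells 48.7 CPM (35.4 to 65.3) and 80.8 CPM (65.0 to 99.3), and aPD1 CD8 cells with Gzmk 77.2 CPM (66.4 to 89.2), all 3 overlapping in aPD1. Foxp3 T cells had no Cd160 UMI in 78 Control and 163 aPD1 cells, which allows up to 12.5 and 6.81 CPM, and CD4 cells had 3 UMIs in Control and 0 in aPD1. Myeloid cells had 0 UMIs in Control and 3 in aPD1.

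Between the libraries Cd160 was higher in aPD1 NK cells, with a log2 ratio of 0.73 (0.20 to 1.29), and not different beyond its interval in CD8 cells without Gzmk (0.10, -0.42 to 0.67) or in other T cells (0.42, -0.15 to 1.02). Both Cd160 and Lag3 were thus higher in aPD1 NK cells, while Cd244 was not (0.01, -0.31 to 0.33). None of the 3 members with at least 20 UMIs in NK cells was past 2-fold, against 5.30% of all genes there.

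Cd244 was foremost a gene of NK and myeloid cells. NK cells had 165 CPM in Control (139 to 193, 149 UMIs) and 166 CPM in aPD1 (143 to 192, 185 UMIs), above every other class. Other T cells (76.6 and 64.6 CPM) and myeloid cells (65.3 and 57.3 CPM) came next and overlapped. Within the myeloid cells, monocytes had 99.3 CPM in Control (73.0 to 132) and 70.4 CPM in aPD1 (58.7 to 83.9), C1q macrophages 42.7 and 38.5 CPM, and the 46 aPD1 cells of the neutrophil gate 169 CPM (96.6 to 274, 16 UMIs). Ccr7 dendritic cells, the migratory type, had 0 UMIs in 23 Control cells, which allows up to 21.9 CPM, and 1 UMI in 67 aPD1 cells (3.06 CPM, up to 17.1). CD4 cells had none in either library and Foxp3 T cells 0 and 4 UMIs, 3 of the 4 in a single cell. All 4 lay in the 9 of 163 Foxp3 T cells that also had a UMI of Ncr1, Klrb1c, Klra8 or Klre1. In the thinned cells 15.0% of Control and 17.5% of aPD1 NK cells carried a Cd244 UMI (means of 16.1% and 15.5% over 20 draws), and 40.4% and 34.0% did without thinning.

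CD8 cells carried little Cd244. Those without Gzmk had 45.0 CPM in Control (21.6 to 82.8, 10 UMIs) and 16.3 CPM in aPD1 (9.83 to 25.5, 19 UMIs), a log2 ratio of -1.46 (-2.64 to -0.20). This was the only member of the 4 past 2-fold in CD8 cells without Gzmk, where 8.71% of all genes were. CD8 cells with a UMI of Ncr1, Klrb1c, Klra8 or Klre1, the NK-gene UMIs, held 9 of the 10 Control UMIs, in 16 of 56 cells. Without those cells the level was 7.91 CPM in Control (1 UMI) and 10.8 CPM in aPD1 (9 UMIs), and the ratio turned to 0.45. Over all CD8 cells, 19 of 72 in Control (26.4%) and 193 of 1053 in aPD1 (18.3%) had an NK-gene UMI. Cd244 was at 6.13 and 5.94 CPM in the CD8 cells without one and at 76.1 CPM (34.8 to 144) and 20.3 CPM (11.8 to 32.4) in those with one. Depth was not matched in this split, and whether the cells with an NK-gene UMI held doublets was not tested. Other T cells showed the same split, with 11.3 and 7.56 CPM without and 148 and 128 CPM with an NK-gene UMI.

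**Figure D3:**
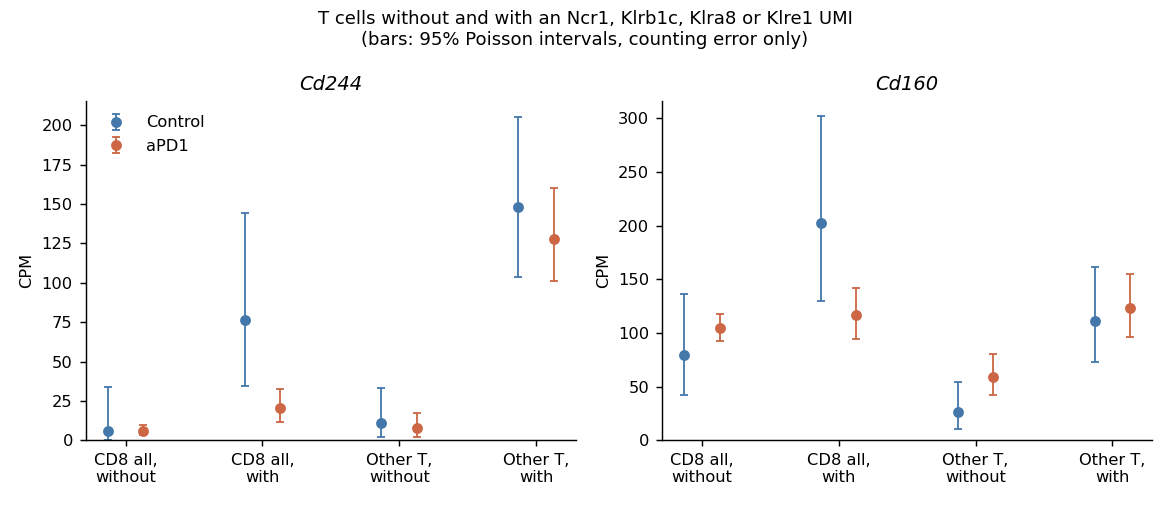
Cd244 and Cd160 in CPM (vertical axis) in all CD8 cells and in other T cells, without and with an NK-gene UMI (horizontal axis), for Control (blue) and aPD1 (orange), with 95% Poisson bars. Cd244 is at 6.13 to 11.3 CPM without an NK-gene UMI in Control and at 76.1 and 148 CPM with one, while Cd160 is also present without one, at 105 CPM in aPD1 CD8 cells.

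Cd160 was also present in T cells without an NK-gene UMI. In aPD1 CD8 cells it was at 105 CPM without an NK-gene UMI (92.8 to 118) and 117 CPM with one (94.8 to 142). In Control the values were 79.7 CPM (42.4 to 136) and 203 CPM (130 to 302), and in other T cells 26.3 and 111 CPM in Control and 59.0 and 123 CPM in aPD1. Without the cells that had an NK-gene UMI, the aPD1 to Control ratio of Cd160 was 0.75 in CD8 cells without Gzmk and 1.16 in other T cells. In aPD1 CD8 cells without Gzmk, Lag3 was at 225 CPM without an NK-gene UMI (194 to 260) and 422 CPM with one (355 to 498), and Havcr2 at 41.9 CPM (29.2 to 58.3) and 106 CPM (74.0 to 148). In aPD1 CD8 cells with Gzmk neither gene was split this way, with Lag3 at 134 and 126 CPM and Havcr2 at 49.4 and 45.2 CPM.

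**Figure D4:**
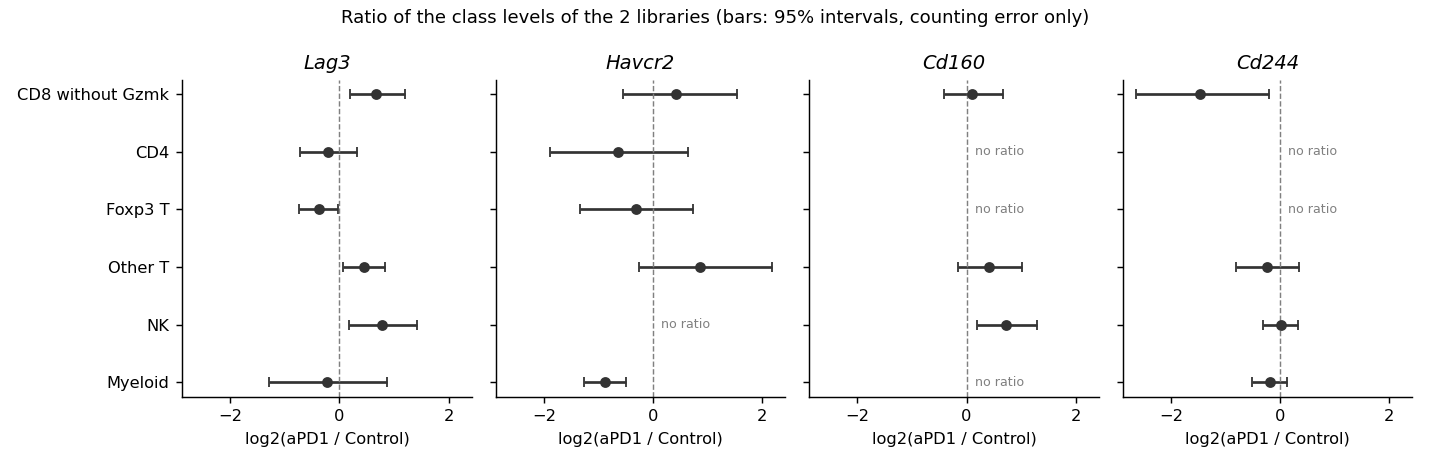
Ratio of aPD1 to Control on the log2 scale (horizontal axis) for each member in 6 classes (vertical axis), with 95% intervals for counting error and a dashed line at 0. The intervals exclude 0 for Lag3 in 4 classes, Havcr2 in myeloid cells, Cd160 in NK cells and Cd244 in CD8 cells without Gzmk. Members with fewer than 20 UMIs in a class are marked as having no ratio.

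In CD4 cells only Lag3 and Havcr2 had at least 20 UMIs, and neither was past 2-fold, against 9.26% of all genes. The same held in Foxp3 T cells, against 7.45%.

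CD8 cells with and without Gzmk, which encodes granzyme K, differed within the aPD1 library. Lag3 was at 132 CPM in cells with Gzmk and 281 CPM in cells without, a log2 ratio of -1.08 (-1.31 to -0.86). Cd160 was at 77.2 and 169 CPM (-1.13, -1.43 to -0.83), and Cd244 at 5.91 and 16.3 CPM (-1.47, -2.57 to -0.39). Havcr2 was at 48.5 and 60.1 CPM, and its interval held 0 (-0.31, -0.75 to 0.14). The 3 genes that were lower with Gzmk were past 2-fold, where 5.30% of all genes were in either direction. Pdcd1 was lower as well, at 141 and 238 CPM (-0.75, -0.99 to -0.52). An NK-gene UMI was present in 16.2% of the cells with Gzmk and 22.1% of those without. Leaving those cells out gave a ratio of -0.75 for Lag3, -0.99 for Cd160 and 0.24 for Havcr2, and thinned cells gave -0.71 for Cd160. Lag3 and Cd160 were thus under 2-fold without the NK-gene cells, and Cd160 also in thinned cells. The median depths were 2982 and 2708 UMIs. In Control, 16 cells with Gzmk, fewer than the minimum of 20 used for the other ratios, gave 11 Lag3 UMIs and a ratio of 0.08 (-1.04 to 1.07), and 2 Cd160 UMIs against 35, a ratio of -2.22 (-5.33 to -0.26).

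Pdcd1 itself had a different order of levels. In Control it was at 257 CPM in CD8 cells without Gzmk (194 to 332), 238 CPM in CD4 cells and 169 CPM in CD8 cells with Gzmk, and in aPD1 at 317 CPM in CD4 cells (255 to 389), 238 CPM in CD8 cells without Gzmk (211 to 268) and 141 CPM in those with it. Foxp3 T cells, the class with most Lag3, had 78.9 and 84.0 CPM of Pdcd1. NK and myeloid cells had at most 19.9 CPM.

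Lag3 and Havcr2 were higher in those aPD1 CD8 cells that also had a Pdcd1 UMI. In aPD1 CD8 cells without Gzmk, Lag3 was at 481 CPM in the 120 cells with a Pdcd1 UMI (211 UMIs) and 160.0 CPM in the 256 cells without one (116 UMIs), a log2 ratio of 1.59 (1.25 to 1.93). Havcr2 was at 97.9 CPM (43 UMIs) and 37.2 CPM (27 UMIs), a ratio of 1.39 (0.67 to 2.15). Cd160 was at 189 and 157 CPM, and its interval held 0 (0.27, -0.16 to 0.69). Both Lag3 and Havcr2 were past 2-fold, of the 3 members with at least 20 UMIs, where 6.48% of all genes were in either direction. The cells with a Pdcd1 UMI were deeper, with a median of 3368.5 UMIs against 2512.5, and 30.8% against 18.0% of them had an NK-gene UMI. The part of that in the difference was not tested.

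Thinned to 1000 UMIs per cell, Lag3 was present in 27.4% of 62 cells with Pdcd1 (16.9% to 40.2%) and 12.7% of 314 cells without (9.26% to 16.9%). The lower limit with Pdcd1, 16.85%, lay just under the upper limit without, 16.94%, so these intervals overlapped slightly. Over 20 further draws the means were 34.3% and 11.6%, and without thinning the shares were 60.0% and 17.2%. Havcr2 was present in 8.06% (2.67% to 17.8%) and 4.46% (2.46% to 7.37%), with means of 11.1% and 4.22% over 20 draws and 29.2% and 8.59% without thinning. In myeloid cells, which served as background for Lag3, 0.424% of cells carried a Lag3 UMI in the thinned data.

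In aPD1 CD8 cells with Gzmk the same comparison gave smaller ratios for Lag3 and Havcr2 and a larger one for Cd160. Lag3 was at 184 and 106 CPM (0.80, 0.47 to 1.13), Havcr2 at 65.5 and 39.7 CPM (0.72, 0.16 to 1.27) and Cd160 at 97.6 and 66.6 CPM (0.55, 0.11 to 0.99). The Lag3 interval lies below that of CD8 cells without Gzmk, while those of Havcr2 and Cd160 overlap, and the difference between these ratios was not tested. In the thinned cells Lag3 was present in 14.0% and 7.88%, and Havcr2 in 5.38% and 4.79%, with means of 3.46% and 3.80% over 20 draws. The intervals of the Lag3 shares overlapped here as well (7.66% to 22.7% and 5.82% to 10.4%), as did those of Havcr2 in CD8 cells with and without Gzmk. In either CD8 class by itself, no difference in the share of cells with Lag3 or Havcr2 was thus beyond its intervals at that depth. Over all aPD1 CD8 cells, thinned in the same way, the Lag3 intervals did not overlap. Lag3 was present in 19.4% of 155 cells with Pdcd1 (13.5% to 26.5%) and 9.58% of 898 cells without (7.73% to 11.7%). The Havcr2 intervals overlapped there, at 6.45% (3.14% to 11.5%) and 4.68% (3.39% to 6.27%).

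In CD4 and Foxp3 T cells Lag3 did not differ with Pdcd1 beyond its interval. It was at 306 CPM with and 313 CPM without a Pdcd1 UMI in aPD1 CD4 cells (-0.03, -0.67 to 0.61) and at 390 and 368 CPM in Foxp3 T cells (0.09, -0.50 to 0.64). In aPD1 other T cells Havcr2 was at 81.1 CPM with and 17.4 CPM without a Pdcd1 UMI (2.22, 1.19 to 3.25). Cd244 ran the other way there, at 31.5 and 71.6 CPM (-1.18, -2.55 to -0.07), and in Control other T cells it had 1 UMI with and 38 without Pdcd1 (-2.90, -8.24 to -0.34). An NK-gene UMI was present in 26.7% of the aPD1 other T cells with Pdcd1 and 40.6% of those without, and in 7.14% and 44.4% in Control. Lag3 in other T cells was at 251 and 125 CPM in Control (1.01, 0.21 to 1.76) and at 216 and 194 CPM in aPD1, where the interval held 0 (0.16, -0.33 to 0.62). In Control, over all 72 CD8 cells, Lag3 was at 241 and 121 CPM (0.99, 0.11 to 1.91) and Cd160 at 203 and 67.4 CPM (1.59, 0.50 to 2.80). The intervals of Havcr2 (1.16, -0.74 to 3.34, 8 against 4 UMIs) and Cd244 (1.38, -0.75 to 3.96, 7 against 3 UMIs) held 0 there. There 48.0% of the 25 cells with a Pdcd1 UMI and 14.9% of the 47 others had an NK-gene UMI, at medians of 4760 and 2856 UMIs. The thinned Control cells held too few Pdcd1 UMIs, in 6 cells, to compare shares.

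**Figure D5:**
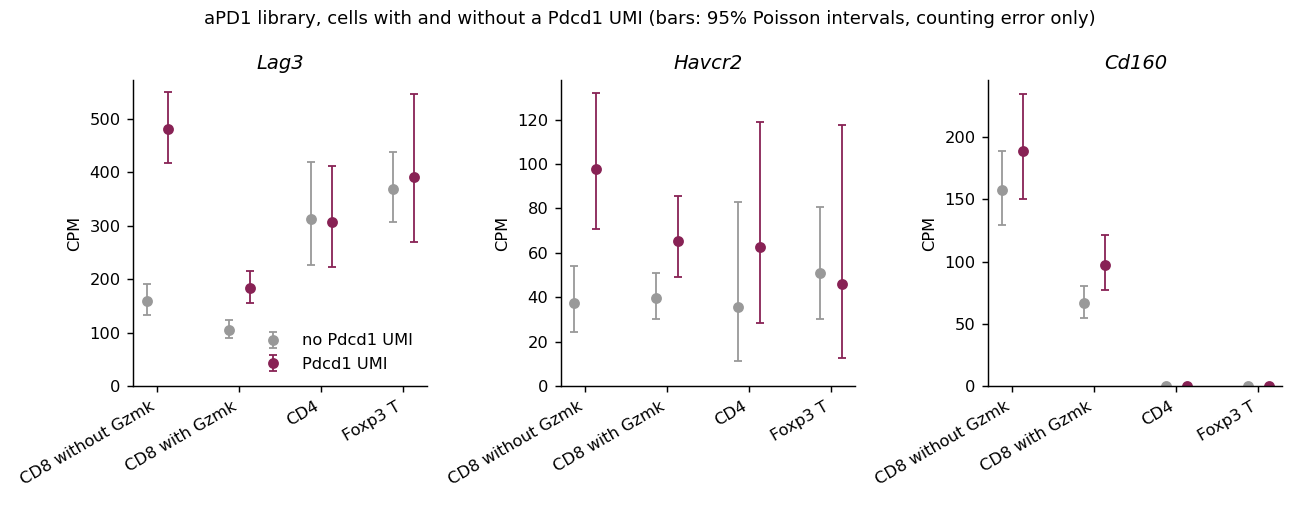
Lag3, Havcr2 and Cd160 in CPM (vertical axis) in aPD1 cells of 4 classes (horizontal axis) without (grey) and with (purple) a Pdcd1 UMI, with 95% Poisson bars. In CD8 cells without Gzmk, Lag3 is at 160.0 and 481 CPM and Havcr2 at 37.2 and 97.9 CPM, while Lag3 in CD4 and Foxp3 T cells is alike on both sides within its bars, and Cd160 had no UMI in those classes and is drawn at 0 without a bar.

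Cells with several members were few at this depth. Of 1053 aPD1 CD8 cells thinned to 1000 UMIs, 817 had none of the 4 genes, 200 had 1, 33 had 2 and 3 had 3. Without thinning, 169 had 2 or more (16.0%, 13.9% to 18.4%), against 15 of 72 in Control (20.8%, 12.2% to 32.0%), and 1 aPD1 cell had all 4. These intervals overlapped, and the median depths were 2890 UMIs in aPD1 and 3287 in Control. In the thinned data 36 aPD1 cells (3.42%) and 2 of 72 Control cells (2.78%) had 2 or more. In aPD1 CD8 cells without Gzmk, Havcr2 was present in 14.0% of the 57 cells with Lag3 and 3.45% of the cells without it in the thinned data, and 32.8% and 7.31% without thinning. Cd160 was present in 21.1% of the cells with Lag3 and 10.3% of those without. In CD8 cells with Gzmk the thinned shares of Havcr2 were 3.39% with and 5.02% without Lag3, the first being 2 cells, and 19.8% and 12.3% without thinning. Of the aPD1 CD8 cells without Gzmk that had Lag3, 29.8% had Pdcd1 in the thinned data and 62.1% without thinning.

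Cycling CD8 cells, those with at least 2 UMIs of Mki67, Top2a, Birc5, Ccnb2 and Rrm2, did not differ from other CD8 cells in the members beyond their intervals in aPD1. The log2 ratio was -0.15 for Lag3 (-0.46 to 0.16), 0.45 for Havcr2 (-0.08 to 0.95) and 0.05 for Cd160 (-0.34 to 0.43), with Pdcd1 at -0.58 (-0.94 to -0.24). For Cd244 it was -1.78 (-4.89 to 0.19), from 2 UMIs in cycling and 31 in other cells. These were 101 cycling and 952 other cells. In Control only 8 CD8 cells were cycling, under the minimum of 20 cells for a ratio. They held 9 of 50 Lag3, 1 of 12 Havcr2, 2 of 37 Cd160 and 1 of 10 Cd244 UMIs.

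The ligands were measured in the same cells. Of the Lag3 ligands, H2-Aa, H2-Ab1 and H2-Eb1, the MHC class II chains, stood in myeloid cells at 8180.3, 8570.1 and 5655 CPM in Control and at 2746, 2703 and 1798 CPM in aPD1, with log2 ratios of -1.57, -1.66 and -1.65. They were 3 of 4 measured genes of that list past 2-fold lower, and the fourth, Lgals3, which encodes galectin-3, was at -0.30 (-0.35 to -0.25). Over all genes in myeloid cells, 8.78% were past 2-fold in either direction. The macrophage gene sum given above differed in the same direction. Of the Havcr2 ligands and adaptor in myeloid cells, Lgals9, which encodes galectin-9, was at 96.7 and 87.0 CPM (-0.15, -0.41 to 0.11), Hmgb1 at 0.42 and Ceacam1 at 0.93 (0.39 to 1.50), and none of 4 was past 2-fold. In NK cells Lgals9 was at 0.96 (0.40 to 1.55). In CD8 cells without Gzmk 1 of 3 measured genes of the Havcr2 list was past 2-fold higher, Bag6, whose product binds the tail of TIM-3 (1.74, -0.22 to 4.84, 35 UMIs against 2 in Control). There 8.71% of all genes were past 2-fold in either direction. In CD4 cells 1 of 3 measured Lag3 ligand genes was past 2-fold lower, H2-Ab1 (-2.73, -4.34 to -1.36, 6 UMIs against 20 in Control). There 9.26% of all genes were past 2-fold in either direction. The sum of the 5 macrophage genes in CD4 cells was 140 CPM in Control and 63.3 CPM in aPD1, and its part in the H2-Ab1 difference was not tested. Tnfrsf14, the Cd160 ligand, had at most 3 UMIs per library in these classes and was measured in none. Cd48, the Cd244 ligand, was at 0.55 in NK cells (0.27 to 0.84), 0.64 in CD8 cells without Gzmk (0.28 to 1.03) and -0.23 in myeloid cells (-0.39 to -0.07). The adaptor genes Sh2d1a (0.17) and Sh2d1b1 (-0.10), for the proteins SAP and EAT-2 that 2B4 signals through, had intervals holding 0 in NK cells.

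Of 10 other inhibitory receptors, 5 were measured in CD8 cells without Gzmk, and 1, Klrg1, was past 2-fold higher (2.20, 0.26 to 5.28, from 48 aPD1 and 2 Control UMIs). The lowest were Entpd1 (-0.29) and Ctla4 (-0.21). The list's median was -0.11, beside 0.12 over all genes. In NK cells 5 of 6 were above 0 with a median of 0.68, beside 0.09 over all genes, with Lair1, the 1 past 2-fold, at 1.21 (-0.09 to 2.70), Klrg1 at 0.88 (0.34 to 1.45), Entpd1 at 0.28 and Pdcd1 at -0.56. In Foxp3 T cells 1 of 6 was past 2-fold higher. Entpd1, which encodes the ectonucleotidase CD39, was at 1.49 there (0.30 to 2.91), and Ctla4 at -0.16 (-0.36 to 0.05). In myeloid cells 1 of 7 was past 2-fold lower, Cd200r1 at -1.26. Over all genes, 8.71% were past 2-fold in CD8 cells without Gzmk, 5.30% in NK cells, 7.45% in Foxp3 T cells and 8.78% in myeloid cells.

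Of 16 regulators of exhaustion, 14 were measured in CD8 cells without Gzmk, 1 was past 2-fold lower and none higher, with a median of 0.03. Tcf7, which encodes the transcription factor TCF-1 of less differentiated T cells, was the lowest, at 76.5 and 34.4 CPM (-1.16, -2.01 to -0.24), and Maf was at -0.73 (-2.11 to 0.89). The highest were Nr4a3 (0.88, -0.81 to 3.24) and Id2 (0.56, 0.34 to 0.80). Split by Pdcd1 within aPD1 CD8 cells without Gzmk, 2 of 13 were past 2-fold higher with Pdcd1, Irf4 (1.24) and Nfatc1 (1.20), and 2 lower, Tcf7 (-1.78) and Nr4a3 (-1.54). Split by Gzmk, 3 of 14 were past 2-fold lower in cells with Gzmk, namely Ikzf2 (-1.84), Nr4a3 (-1.80) and Tcf7 (-1.03), and the highest were Eomes (0.80) and Id2 (0.43). In myeloid cells 3 of 12 were past 2-fold lower in aPD1, namely Nr4a3 (-1.34), Nr4a2 (-1.23) and Irf4 (-1.06). None was past 2-fold of 12 in NK cells or of 10 in Foxp3 T cells, and 1 of 7 was in CD4 cells, Nr4a2 (-1.13, -2.52 to 0.24). Over all genes, the share past 2-fold in either direction was 8.71% in CD8 cells without Gzmk. It was 6.48% in the split by Pdcd1 and 5.30% in the split by Gzmk. Between the libraries it was 8.78% in myeloid cells, 5.30% in NK cells, 7.45% in Foxp3 T cells and 9.26% in CD4 cells.

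Of the 6 SLAM family genes other than Cd244, none was past 2-fold in CD8 cells without Gzmk, with medians of 0.58 for the list and 0.12 for all genes. Ly9 was the 1 of 5 past 2-fold in Foxp3 T cells (1.30, -0.01 to 2.87). In myeloid cells Cd84 was at 130 and 57.0 CPM (-1.19, -1.46 to -0.92) and Slamf1 at 1.58 (0.002 to 3.59), 1 of 6 past 2-fold in each direction, while none of 4 was in NK cells. Over all genes, 8.71% were past 2-fold in CD8 cells without Gzmk and 7.45% in Foxp3 T cells. The share was 8.78% in myeloid cells and 5.30% in NK cells. Of the TIM family genes other than Havcr2, Timd4, a receptor for phosphatidylserine on resident macrophages, was the only one measured, in myeloid cells (-1.47, -2.28 to -0.68).

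The genes with the most similar pattern over 12 class and library sums, by Pearson correlation of log2(CPM + 10) among 5724 genes, were Xlr4b, Smc4 and Icos for Lag3 (r of 0.978 for each). For Havcr2 they were S100a4, Rgs10 and Ifit3b (0.916, 0.896 and 0.893), for Cd160 Nop56, Rpl8 and Rpl10a (0.931, 0.926 and 0.926) and for Cd244 Hhex, Gas7 and Ing3 (0.936, 0.919 and 0.905). The points share libraries and gates, so these values only describe likeness.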

How the data were processed

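The deposited values are UMI counts per gene and barcode, made by the authors and not normalised; per the submitters' processing notes, Cell Ranger 2.1 and the mm10 build were used, and the read filters are not given in the sources used here. Each matrix listed 737280 barcodes, with 5203415 UMIs in Control and 13717817 in aPD1. Barcodes with at least 1000 UMIs and at most 10% mitochondrial UMIs were kept and gated on raw UMIs of marker genes: T cells by a Cd3d, Cd3e or Cd3g UMI with fewer than 5 myeloid UMIs (Lyz2, Cst3, Csf1r, Cd68, Csf3r) and fewer than 2 B-cell UMIs (Cd79a, Cd79b, Ms4a1), then Cd8a or Cd8b1, Cd4, Foxp3 and Gzmk. NK cells had an Ncr1 or Klrb1c UMI, no T-cell marker UMI and fewer than 5 myeloid UMIs. Myeloid cells had at least 5 myeloid UMIs and no Cd3 or Ncr1 UMI. UMIs were summed per class and library (CPM), with exact Poisson intervals, conditional binomial intervals for ratios and Clopper-Pearson intervals for shares, computed with Python 3.11.15 and scipy 1.17.1. A count of 0 was given the limit of 3 UMIs. A gene counted as measured in a comparison with at least 20 UMIs over both sides, and as past the fold at 2-fold, with sums under 3 UMIs set to 3. The ratio and thinning steps were tested on simulated data. Members, gates and lists were chosen with earlier results of these data known. The genes named are the 4 members, Pdcd1, the 2 highest and 2 lowest measured genes of each list or those that pass the fold, and the 3 genes most like each member. Alternatives were other UMI and mitochondrial limits, stricter gates, no deep barcodes, other denominators, free RNA subtracted and thinned cells.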

Additional observations from a re-analysis of the deposited data

Results flagged for a closer look

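The aPD1 to Control ratio of Lag3 pointed in opposite directions in different classes. On the log2 scale it was 0.68 in CD8 cells without Gzmk, 0.44 in other T cells and 0.78 in NK cells, and -0.38 in Foxp3 T cells. These intervals each excluded 0 for counting error, and the difference between the classes was not tested. In thinned other T cells Lag3 was at 215 CPM in Control and 220 CPM in aPD1. The other classes kept their direction when thinned. Without an NK-gene UMI, Lag3 was at 244 CPM in Control and 274 CPM in aPD1 other T cells. In such CD8 cells without Gzmk it was at 166 and 225 CPM, and both pairs of intervals overlapped. With an NK-gene UMI the values were 37.1 and 113 CPM and 188 and 422 CPM, and neither pair overlapped.

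The members also had UMIs in cells that met no gate and entered no comparison, 118 in Control and 426 in aPD1. Lag3 was at 90.9 CPM in Control and 56.8 CPM in aPD1. Havcr2 was at 48.5 and 41.2 CPM, Cd160 at 22.2 and 45.0 CPM, and Cd244 at 101 and 56.8 CPM. A single cell with 15 UMIs held 33.3% of the Control Lag3 UMIs there. Of these cells, 39 in Control and 178 in aPD1 had a Cd3 UMI together with at least 5 myeloid UMIs, at medians of 5777 and 5836 UMIs, and Lag3 was at 153 and 62.5 CPM in them. A further 70 and 230 cells had no Cd3 UMI and fewer than 5 myeloid UMIs, at medians of 1789 and 1601 UMIs, and there Cd244 was at 122 and 95.7 CPM.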

How the results depend on the processing

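With 1 library per group no replicate could be left out, and no spread between mice is known. No paired analysis was possible because each group held 1 library. Of 180 values of the aPD1 to Control ratios under alternatives, 172 stayed within the main interval. Leaving out T cells with an NK-gene UMI, chosen after seeing the data, reversed Cd244 in CD8 cells without Gzmk to 0.45 (1 Control UMI) and gave Cd160 0.75 there and 1.16 in other T cells. Thinned cells gave -0.75 for Havcr2 in CD8 cells without Gzmk, 0.034 for Lag3 and -1.30 for Cd244 in other T cells, and -0.20 for Havcr2 in myeloid cells. Asking for 2 marker UMIs gave -0.93 for Cd244 in other T cells. In the aPD1 comparison by Gzmk, 56 of 59 values over both libraries stayed within the main interval, against -0.75 for Lag3 and 0.24 for Havcr2 without the NK-gene cells and -0.71 for Cd160 in thinned cells. Thinned Control cells gave no Cd160 value there. Of 310 values of the levels, 255 stayed within their interval, and 29 of the 55 that moved came from leaving mitochondrial and ribosomal protein genes out of the CPM.

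The shares of aPD1 CD8 cells with a member, by Pdcd1, moved most with depth, in 14 of 40 values. Without thinning, Lag3 was in 33.2% with and 24.2% without Pdcd1 among cells with Gzmk, and 60.0% and 17.2% among those without Gzmk. Havcr2 was in 20.3% and 11.8%, and in 29.2% and 8.59%. At 2000 UMIs per cell, Lag3 was in 23.6% and 18.4% with Gzmk and 44.3% and 21.2% without, and Havcr2 in 22.8% of cells with Pdcd1 and without Gzmk. Without the deepest barcodes, Lag3 was in 11.1% of cells with Gzmk and without Pdcd1. The settings without the top cell of a gene and with 20 further draws were also chosen after seeing the data.

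The number of genes past 2-fold between the libraries depended on the UMI filter. With a filter of 20 UMIs, of 50 UMIs, and of only more than 3 UMIs in either library, it was 457, 169 and 2137 in CD8 cells without Gzmk, 245, 27 and 773 in CD4 cells, 281, 48 and 929 in Foxp3 T cells, 333, 64 and 912 in NK cells, and 787, 400 and 1339 in myeloid cells. The filter sets which genes are counted, so these counts rest on different numbers of genes. With the filter of 20 UMIs, 5248, 2647, 3771, 6278 and 8961 genes were tested in these classes, in the same order. The numbers tested under the other filters are not given here, so the counts are not shares.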
